A study of Schizosaccharomyces pombe with 31 samples.

Results

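Nitrogen starvation for 4 h was followed in fission yeast cells that lacked *ppk18* and *cek1*, genes for Greatwall protein kinases. The data were the 3 RNAseq libraries of the *ppk18*∆ *cek1*∆ strain after 4 h in minimal medium without nitrogen (MM-N) and the 3 libraries of the same strain taken from minimal medium (MM) just before the shift, 6 of the 31 libraries of the series. The strain was h- *ppk18::KanMX6 cek1::natMX6*. The labels called it a knockdown, although the genotype names insertions that replace both genes, and the third Greatwall kinase gene, *ppk31*, was not among the alleles. Cells in mid-exponential growth in MM, whose nitrogen source is ammonium chloride, were washed, moved to MM-N at 25 °C and harvested after 1 h and 4 h. The wild type h- 972 and h- *igo1::kanMX6* cells were treated in the same way and served for comparison, with 3 libraries labelled as biological replicates for each strain and time. All strains were of the h- mating type alone, so no mating partner was present.

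In fission yeast the growth-promoting kinase complex TORC1 is active while nitrogen is plentiful. It works through the S6 kinases Sck1, Sck2 and Psk1, which hold the Greatwall kinases Ppk18, Cek1 and Ppk31 inactive. When nitrogen runs out this brake is released, Greatwall phosphorylates the Endosulfine protein Igo1, and phosphorylated Igo1 inhibits the phosphatase PP2A bound to its B55 subunit Pab1. Starved wild-type cells divide without growing, arrest in G1 and prepare for mating or quiescence. The question put to these libraries was which part of the starvation response takes place when most of the Greatwall activity is missing.

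Few reads were left at both deleted genes. Normalized counts of *ppk18* were 220, 194 and 179 in MM and 166, 179 and 142 at 4 h, and over all 9 libraries of the strain they came to 4.09% of the wild-type mean. Those of *cek1* were 35.6, 23.9 and 165 in MM and 59.5, 52.1 and 75.3 at 4 h, or 1.8% of the wild type. Reads counted per library ran from 15971778 to 21223569 in MM and from 16723508 to 18296637 at 4 h. The share of ribosomal protein transcripts was 12.8% to 13.9% in MM and 2.69% to 2.82% at 4 h, and that of long non-coding RNAs 1.07% to 1.22% and 2.63% to 2.81%. The third library at 4 h stood somewhat apart. Of 5207 genes with a mean of at least 100 in that group, 30 were more than 2-fold above both other replicates in it, against 0 to 8 genes in any other library of the strain, and several of these were genes of mating and cell cycle control, so values without it are given where they change a call in the 4 h change of a gene named here.

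At 4 h the transcriptome had changed almost throughout. Of the 6036 genes that averaged 10 or more normalized counts over all libraries, 2529 (41.9%) were higher and 2466 (40.9%) lower than in MM at an adjusted p below 0.05, or 82.8% in all. The counts for each gene group below are to be read against these shares. The 3 libraries at 4 h did not overlap those in MM for 4929 genes (81.7%). More than 2-fold, 1047 genes (17.3%) rose and 892 (14.8%) fell. In the wild type 844 genes (14%) rose and 904 (15%) fell by this measure. Among protein-coding genes 40.1% were higher and 45% lower, whereas 51.4% of the long non-coding RNAs were higher and 21.1% lower. Normalized counts are relative to the other transcripts in a library, and the amount of RNA per cell was not measured. The normalized totals were 20658631 to 22085821 in MM and 17083846 to 18860911 at 4 h. When libraries were scaled to equal totals instead, the median change of all genes moved from 0.02 to 0.29 on the log2 scale, and small changes must be read against that shift.

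The largest rises were in nitrogen scavenging, membrane transport and chromosome-end genes. SPAC869.04, which encodes a formamidase-like protein, went from 9.58, 2.08 and 2.34 normalized counts in MM to 18233, 20367 and 18423 at 4 h, a log2 change of 11.96 ± 0.28 (SE, n = 3 per group, adjusted p = 6.04e-21). Its neighbour SPAC869.03c, a urea transporter gene, went from 9.58, 7.28 and 8.17 to 21238, 23958 and 20689 (11.2 ± 0.14, adjusted p = 9.64e-26). The amidase gene SPAC869.01 went from 32.9, 39.5 and 18.7 to 7427, 9144 and 8192 (8.1 ± 0.22, adjusted p = 6.95e-20). All 3 genes serve the release or uptake of nitrogen from simple organic compounds, and their rises in the wild type were of like size, with log2 changes of 12.1, 11.83 and 7.48. The amino-acid permease gene *nrg1* went from 76.7, 63.5 and 59.6 to 16834, 17562 and 16203 (7.97 ± 0.1, adjusted p = 1.26e-25). Here the wild type reached a similar level, 16921 to 17876, from a higher start of 490 to 499 in MM, so that its log2 change was 5.14.

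*cta3*, which encodes a P-type calcium ATPase, went from 122, 86.4 and 63.1 normalized counts to 31218, 32066 and 34329 (8.52 ± 0.2, adjusted p = 9.85e-21). Wild-type cells had 89.7 to 125 in MM and 417 to 484 at 4 h, a log2 change of 2.06. The transcription factor gene SPBC1773.12 went from 20.5, 20.8 and 15.2 to 7182, 7707 and 6832 (8.52 ± 0.15, adjusted p = 6.45e-23), against 798 to 806 at 4 h in the wild type. The remaining 4 of the 10 largest coding rises were *hhy1*, a hydrolase gene (27.4, 28.1 and 28 to 13192, 14145 and 11646), *hry1*, which encodes a cation-binding domain protein (2.74, 3.12 and 1.17 to 1709, 1242 and 1333), and SPAPJ695.02 and SPBPB21E7.10, which encode uncharacterized proteins, with log2 changes of 8.81, 8.78, 8.21 and 8.07. In MM *hry1* and SPBPB21E7.10 (0, 2.08 and 0) were too low for their fold change to be measured well. Of the 10 genes, *hhy1*, *hry1*, *cta3*, SPBC1773.12 and SPBPB21E7.10 overlap another annotated gene. How the counting treated strand was not given in the sources used here, so reads of overlapping genes may be shared. Of the genes named with values here this holds for 143 of 263, among them *inv1*, SPCC70.08c, SPCC576.17c, *mfm3*, *ste6*, *cdc18*, *srw1*, *lys4*, *amt3*, *gdh1*, *hsp9*, *gpd1*, *isp6* and *eno102*.

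Position was common to most of these genes. In RefSeq gene order (assembly ASM294v3), 8 of the 10 lay among the outermost 31 protein-coding genes at an end of chromosome I or II. SPAPJ695.02 and *hhy1* were the genes in places 26 and 31 of 2333 on chromosome I, and *hry1*, SPAC869.04, SPAC869.03c and SPAC869.01 were in places 2311, 2313, 2314 and 2316. On chromosome II, SPBPB21E7.10 was in place 21 and *nrg1* in place 1844 of 1865. The pattern was seen first in these 10 genes, and a window of 50 genes from each end was then chosen to describe it. Of 163 genes tested in that window, 96 (58.9%) rose more than 2-fold and 14 (8.59%) fell, with a median log2 change of 1.56. The 163 include the 8 genes in which the pattern was seen. A gene low in MM could also pass the filter through the starved libraries where it was high. Of the 3936 other coding genes of chromosomes I and II, 464 (11.8%) rose and 611 (15.5%) fell, with a median of -0.07. Genes in the window rose in the wild type too, 75 of 163 (46%), with a median of 0.76. The 4 h change of 59 genes in the window (36.2%) was more than 2-fold higher than in the wild type, against 242 (6.15%) of the other genes. Before starvation, in MM, the strains differed by more than 2-fold in 2 of these genes upward and 4 downward.

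**Figure D1:**
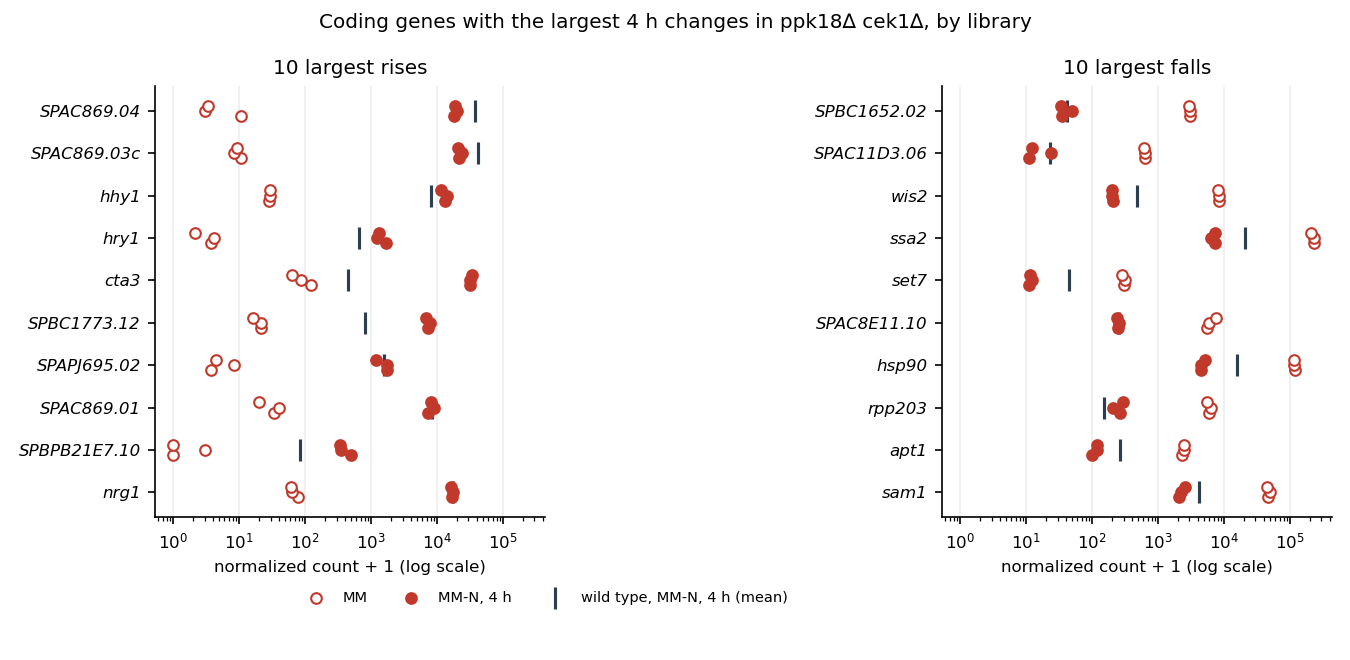
Normalized counts (log axis) of the 10 protein-coding genes that rose most and the 10 that fell most in *ppk18*∆ *cek1*∆ cells, with the 3 MM libraries as open points, the 3 libraries at 4 h in MM-N as filled points and the wild-type mean at 4 h as a tick. The open and filled points of each gene lie far apart, and the wild-type tick falls well below the filled points for *cta3* and SPBC1773.12 and above them for *hsp90*, *ssa2* and *wis2*.

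The 10 largest falls included genes of chaperones and transporters. SPBC1652.02, which encodes an amino acid transporter, went from 3105, 3012 and 3000 normalized counts to 33.7, 49 and 33 (-6.29 ± 0.18, adjusted p = 1.84e-19). The log2 change in the wild type was -6.13, and the difference between the strains (-0.16) was not significant (adjusted p = 0.607). *hsp90*, the chaperone that matures kinases and receptors, went from 120166, 115922 and 115344 to 4494, 4445 and 5141 (-4.64 ± 0.052, adjusted p = 5.28e-26), and the Hsp70 gene *ssa2* from 233886, 227567 and 207164 to 7198, 6327 and 7229 (-5.01 ± 0.062, adjusted p = 9.64e-26). The cyclophilin gene *wis2* went from 8453, 8273 and 8183 to 206, 198 and 203 (-5.35 ± 0.063, adjusted p = 6.43e-26). These chaperone genes fell further than in the wild type, by -1.79 for *hsp90*, -1.58 for *ssa2* and -1.33 for *wis2* (log2, adjusted p = 2.62e-15, 4.1e-13 and 1.39e-11).

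*sam1*, which encodes S-adenosylmethionine synthetase, the enzyme that makes the cell's methyl donor, went from 45905, 49482 and 45396 to 2055, 2199 and 2609 (-4.36 ± 0.093, adjusted p = 1.18e-21). The histone methyltransferase gene *set7* went from 303, 317 and 285 to 9.91, 11.2 and 10.3, with a log2 change of -4.72 against -2.78 in the wild type. The other falls among the 10 were SPAC11D3.06, a transporter gene (-5.41), SPAC8E11.10, a sorbose reductase gene (-4.67), *rpp203*, an acidic protein of the large ribosomal subunit (-4.53), and *apt1*, adenine phosphoribosyltransferase (-4.42). All of the 10 except SPAC8E11.10, *hsp90* and *sam1* overlap another annotated gene. Among the non-coding RNAs, SPNCRNA.577 rose most by the fit (50.7, 29.1 and 12.8 to 14870, 16128 and 16899, log2 change 9.16), followed by SPNCRNA.448, which was 0 in all 3 MM libraries and 320, 381 and 380 at 4 h, at least 87.8-fold higher than the level that 3 reads per library would give. SPNCRNA.1695 rose by 8.21 on the log2 scale. SPNCRNA.645, SPNCRNA.1190 and SPNCRNA.685 had the largest falls (-3.92, -3.76 and -3.63).

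Genes for ammonium and for its assimilation were higher than in MM. Of 12 genes for ammonium uptake, glutamate and glutamine metabolism and alternative nitrogen sources, 9 rose and 2 fell, with a median log2 change of 1.23 against 0.02 over all genes. The ammonium transporter gene *amt1* went from 4051, 3845 and 3900 normalized counts to 36942, 36517 and 52992 (3.4 ± 0.1, adjusted p = 8.43e-19). Its paralogue *amt3* went from 82.1, 41.6 and 75.9 to 1715, 1989 and 1549 (4.75 ± 0.19, adjusted p = 1.14e-16), while *amt2* rose by 1.13. Wild-type *amt3* did not follow. It was 50.4 to 66.5 in MM and 68.3 to 79 at 4 h, and the difference between the strains was 4.47 ± 0.27 (log2, adjusted p = 2.16e-12). *gdh1*, the glutamate dehydrogenase that fixes ammonium, went from 23435, 24098 and 23105 to 44688, 47230 and 42066 (0.92 ± 0.066), whereas in the wild type it fell, from 22809 to 26253 in MM down to 8712 to 9922 (difference 2.33 ± 0.093, adjusted p = 1.22e-15). *glt1*, glutamate synthase, rose by 1.37 and its change was 1.63 higher than in the wild type. The oligopeptide transporter gene *isp4* (4.37), the peptide transporter gene *ptr2* (3.59), the urease gene *ure2* (1.33) and the glutamine synthetase gene *gln1* (0.49) also rose. *gdh2* fell by 0.62 and *nit1*, of the nitrilase superfamily, by 0.28, and *ure4* did not pass the test (0.01).

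Of 11 amino acid permease genes 9 rose and 1 fell, with a median of 1.79. The permease gene *isp5* went from 381, 378 and 264 to 14123, 15456 and 18440 (5.56 ± 0.16, adjusted p = 1.74e-19), and the wild type gave 5.6. *put4* (2.99), *meu22* (2.98), *agp3* (2.57) and the vacuolar transporter genes *fnx1* (2.4) and *avt5* (1.79) rose as well. The change of *avt5* was 1.7 ± 0.084 above that of the wild type (adjusted p = 5.9e-14), in which it was 0.09. *aat1* rose by 0.59, although it fell by 0.93 in the wild type. *cat1*, the cationic amino acid permease, fell by 0.68, and *avt3* did not pass the test (0.08).

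Transcripts of the TORC1 machinery moved little. Of 23 genes of TORC1, TORC2 and their regulators 20 rose and 2 fell, with a median of 0.48 (0.54 in the wild type). Only 4 of the 20 rose more than 2-fold, namely *isp7*, an oxygenase gene (3.49), *oca2*, a kinase gene (3.25), *tsc1*, a subunit of the complex that restrains TORC1 (1.65), and *gaf1*, a GATA transcription factor (1.11). *rhb1*, the GTPase that activates TORC1, and *tip41* fell by 0.21 each, with the opposite sign on equal totals, and without the third library at 4 h *tip41* was no longer called (-0.11, adjusted p = 0.215). Leaving out the third library at 4 h, the log2 change of *oca2* was 2.93. Of 11 genes of the Greatwall–Endosulfine switch, PP2A and the S6 kinases, 5 rose and 5 fell, or 6 and 1 with libraries scaled to equal totals. The deleted *ppk18* and *cek1* were on this list, and the few reads left at *ppk18* were counted among the falls. *ppk31*, the remaining Greatwall gene, went from 47.9, 78 and 61.9 to 139, 129 and 124 (1.07 ± 0.2, adjusted p = 3.84e-05). *igo1* went from 2790, 3015 and 3075 to 4633, 4510 and 3984 (0.56 ± 0.073, adjusted p = 2.25e-07), and it fell by 0.23 in the wild type. The S6 kinase genes *psk1* (0.6) and *sck1* (0.35) rose and *sck2* fell by 0.24. The B55 gene *pab1* rose by 0.1, and the PP2A genes *ppa1*, *ppa2* and *paa1* fell by 0.1, 0.23 and 0.49, of which *ppa1* and *ppa2*, and *sck2* too, changed sign on equal totals. Without the third library at 4 h 5 of the 11 rose and 3 fell. *ppa1* (-0.09, adjusted p = 0.0803) and *ppk18* (-0.19, adjusted p = 0.0672) were then no longer called. The log2 changes of these PP2A and B55 transcripts were all under 0.5 in size.

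Autophagy genes rose without Ppk18 and Cek1. Of 28 genes 26 rose and 0 fell, 14 of them more than 2-fold, with *atg2402* (2.36), *nbr1* (2.29), *atg4* (2.24) and *atg1* (2.14) at the top, and *atg10* (-0.1) and *atg11* (-0.05) did not pass the test. The vacuolar serine protease gene *isp6* went from 5979, 5849 and 5097 to 110261, 104639 and 117975 (4.3 ± 0.062, adjusted p = 1.4e-24). The wild type reached 264323 to 278503, and the change in the mutant was 0.91 ± 0.088 lower (adjusted p = 7.17e-09). All 7 genes on the vacuolar hydrolase list rose, among them the carboxypeptidase gene *cpy1* (1.49) and the protease gene *psp3* (1.3). The list also held *vsl1*, which does not encode a hydrolase, and *sxa1*, which is counted again among the P-cell mating genes. *cpy1* and *atg15* are among the 28 autophagy genes as well. For 13 of the 28 autophagy genes the change was smaller than in the wild type and for 2 it was larger, where 28.1% of all genes were lower and 32.9% higher. With libraries scaled to equal totals these were 20 and 1, where 2465 of all 6036 genes were lower and 1290 higher. The greatest shortfalls were in *atg1801* (-0.97), which encodes a phosphoinositide-binding protein, *atg22* (-0.94), a vacuolar amino acid exporter in budding yeast, and *atg15* (-0.76), the vacuolar lipase.

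The 4 h change was compared with that of the wild type gene by gene in one model. The change differed for 3682 of 6036 genes (61%), being higher in the mutant for 1985 (32.9%) and lower for 1697 (28.1%). Counts of genes in a group whose change differed from the wild type are to be read against these shares. By more than 2-fold it was higher for 631 genes (10.5%) and lower for 267 (4.42%). With libraries scaled to equal totals 1290 were higher and 2465 lower, as the median difference over all genes was then -0.16 instead of 0.04. Across genes the changes of the strains had a Pearson r of 0.76, given as a description since genes are not independent replicates, and 78.4% had the same sign. Of the 1047 genes that rose more than 2-fold in the mutant, 575 did so in the wild type (54.9% of the mutant's and 68.1% of the wild type's 844). For falls the overlap was 618 genes (69.3% of the mutant's 892 and 68.4% of the wild type's 904). Of the mutant's 1047 rises, 634 were larger than in the wild type by the test of the difference and 94 smaller. Of the wild type's 844 rises, 218 were larger in the mutant and 316 smaller. Each set was chosen by a change that enters this test, so each split leans towards the strain that chose it. Over all genes tested, 501 changed significantly in opposite directions, 266 of them higher in the mutant and 235 lower, and 411 of the 501 were protein-coding. In MM, before starvation, 101 genes (1.67%) differed between the strains.

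**Figure D2:**
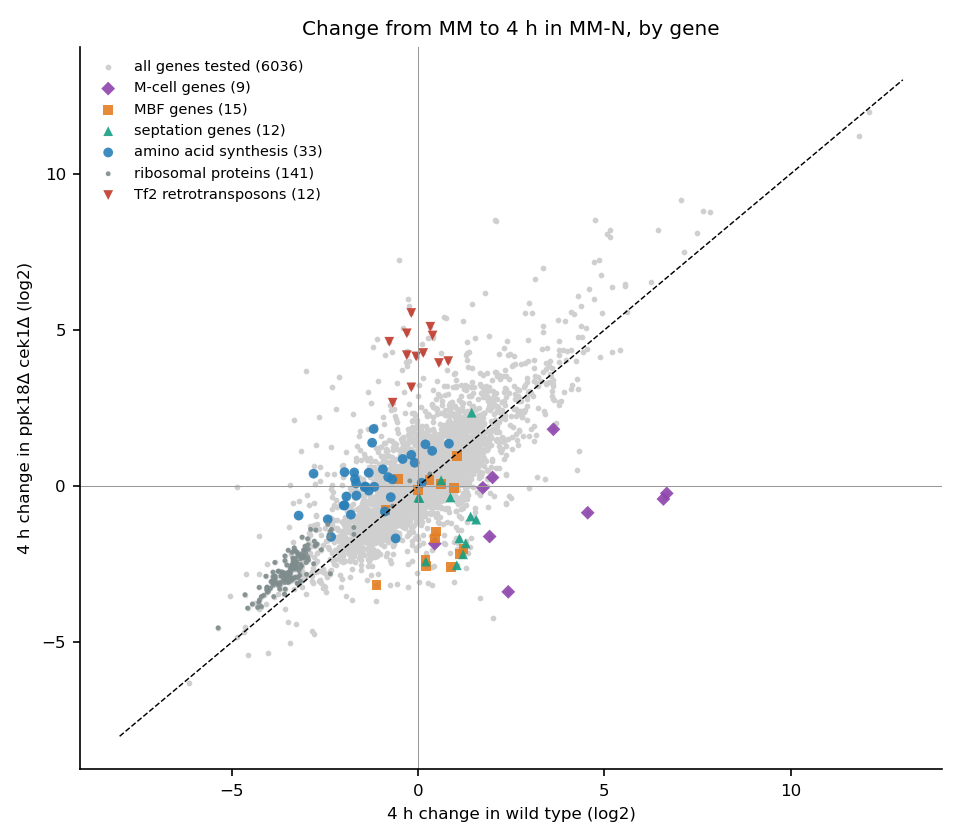
Log2 change at 4 h in MM-N against MM for 6036 genes, in the wild type (x axis) and in *ppk18*∆ *cek1*∆ cells (y axis), with 6 gene groups coloured and a dashed line of equal change. The changes of the strains correlate across genes (r = 0.76), although they differed by the test for 61% of genes. All M-cell genes and most MBF and septation genes lie below the line. Most amino acid synthesis genes and all Tf2 genes lie above it.

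Some genes rose to far higher levels than in the wild type. SPAC977.15, a dienelactone hydrolase family gene that is in place 23 of chromosome I, went from 21.9, 25 and 24.5 normalized counts to 3549, 3634 and 3898, and was 14.6 to 20.1 in the wild type at 4 h (difference 7.73 ± 0.31, log2, adjusted p = 1.13e-15). *inv1*, the secreted invertase that splits sucrose and is repressed by glucose, went from 485, 337 and 216 to 22001, 16654 and 24770, against 214 to 283 in the starved wild type (difference 6.27 ± 0.41, adjusted p = 1.11e-11). *cta3* differed by 6.46 ± 0.29 (adjusted p = 9.46e-15). The methyltransferase gene SPCC70.08c went from 1079, 1144 and 1045 to 13666, 13512 and 9888, whereas in the wild type it fell from 870 to 987 down to 166 to 236 (difference 5.61 ± 0.18, adjusted p = 2.66e-17). The pyridoxine transporter gene SPCC576.17c went from 93.1, 129 and 92.3 to 1931, 2103 and 2095, with 67.5 to 85.4 in the starved wild type (difference 4.99 ± 0.22, adjusted p = 7.76e-15). None of the mutant's libraries at 4 h overlapped those of the wild type for these genes. SPAC977.15 and *cta3* were at like levels in starved *igo1*∆ cells, 3452 to 4378 and 31166 to 41227.

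The M-cell mating genes fell furthest behind the wild type, with the lowest median difference of the groups compared (-3.53, log2). The median was -0.33 for the P-cell genes and -0.15 for the pheromone and meiosis genes below. Fission yeast cells of the h- type are M cells, which on nitrogen starvation express the M-factor pheromone, its exporter and the receptor for the partner's P-factor. All 9 M-cell genes rose in the wild type, where 39.9% of all genes rose and 39.4% fell (79.4% in all), with a median log2 change of 2.41, while in *ppk18*∆ *cek1*∆ cells 2 rose and 4 fell, with a median of -0.41. The pheromone precursor gene *mfm1* was 37, 31.2 and 40.9 in MM and 27.7, 21.5 and 33 at 4 h, which did not pass the test (-0.41 ± 0.42, adjusted p = 0.373). In the wild type it was 63.5 to 118 in MM and 6727 to 10737 at 4 h, so the change differed by -6.99 ± 0.6 (adjusted p = 8.61e-10). *mfm3* was 13.7, 13.5 and 19.9, then 11.9, 11.2 and 16.5, against 894 to 1426 in the starved wild type (difference -6.9 ± 0.43, adjusted p = 3.56e-12), and *mfm2* fell from 607, 624 and 1002 to 216, 207 and 297.

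*mam2*, the P-factor receptor gene, fell from 99.9, 112 and 134 to 63.4, 60.3 and 66 (-0.85 ± 0.17, adjusted p = 7.06e-05), whereas the starved wild type had 3432 to 4863. *ste6*, which encodes the exchange factor that activates Ras1 in the pheromone pathway, fell from 205, 169 and 213 to 20.8, 17.4 and 15.5 (-3.38 ± 0.23, adjusted p = 1.81e-12), against 898 to 1195 in the wild type (difference -5.8 ± 0.32, adjusted p = 3.83e-13). *mam4*, which methylates the pheromone, fell by 1.84. *mam3*, the M-cell agglutinin gene, rose from 400, 306 and 301 to 1045, 692 and 2255 (1.82, or 1.35 without the third library), and *mam1*, the M-factor transporter gene, rose by 0.28. *sxa2*, the protease that degrades P-factor, did not pass the test (-0.05). The summed normalized count of the 9 genes was 3213 to 4085 in MM, 3095 to 4672 at 4 h and 25642 to 35851 in the starved wild type. In bulk RNA, fewer cells that express a gene and less RNA per cell cannot be told apart. Of 5 genes typical of the opposite P mating type, 2 rose and 1 fell. *map2*, the P-factor gene, stayed low (93.1, 112 and 60.7, then 38.6, 50.1 and 43.3) and the M-factor receptor gene *map3* was 183 to 196 in MM, then 158, 139 and 197, and without the third library it was called lower (-0.35, adjusted p = 0.017).

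Regulators upstream of these genes showed a mixed picture. *ste11*, the transcription factor that switches on mating genes, was 789, 549 and 941 in MM and 515, 397 and 1254 at 4 h, which did not pass the test (-0.22, adjusted p = 0.545), and without the third library it was called lower (-0.71, adjusted p = 0.0335). In the wild type it rose by 1.93 and the difference was -2.15 ± 0.47 (adjusted p = 0.000445). *mei2*, the RNA-binding protein that commits cells to meiosis, went from 398, 267 and 481 to 679, 454 and 1765 (1.13, adjusted p = 0.0111), a call that was lost without the third library (0.58, adjusted p = 0.143). The wild type reached 8564 to 13124 (difference -3.18 ± 0.56, adjusted p = 3.61e-05). *spk1*, the MAP kinase of the pathway, rose by 0.3 (0.14 and not significant without the third library) against 3.18 in the wild type. *gpa1*, the G protein α subunit that relays the pheromone signal, rose by 0.5 against 1.88. *rgs1*, which switches that G protein off, fell by 0.53 and *ste4* by 1.16, although these rose by 2.37 and 1.31 in the wild type.

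Other pheromone and meiosis genes did rise. *pat1*, the kinase that blocks meiosis, went from 643, 361 and 688 to 1900, 1421 and 4784 (2.11, or 1.6 without the third library). *rst2*, an activator of *ste11*, went from 1594, 1288 and 1569 to 5458, 4831 and 6394 (1.9 ± 0.096, adjusted p = 9.65e-15) and its change was 0.82 above the wild type's. *ste7* (1.63), *rep1* (1.34), *esc1* (1.26), *fus1* (1.16), *phx1* (1.03), *mei4* (1.02), *pac2* (0.98), *mei3* (0.95), *byr1* (0.61) and *byr2* (0.4) rose, and *ral2*, *nrd1* and *rcd1* did not pass the test. Of these 22 genes 15 rose and 3 fell, and 11 and 4 did so without the third library at 4 h, when the calls of *mei2*, *spk1*, *ste7* (0.97, adjusted p = 0.0577) and *esc1* (0.68, adjusted p = 0.132) were lost and *ste11* was called lower. Against the wild type, the change was lower for 10 of the 22 and higher for 5, where 28.1% of all genes were lower and 32.9% higher. *ste6* is counted among the 22 as well as among the M-cell genes.

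G1/S transcription was low at 4 h. The MBF factor (Cdc10, Res1 and Res2 with partners) drives genes for the start of S phase. Of 15 genes of the factor and its targets 10 fell and 3 rose, with a median of -1.45. In the wild type 10 rose and 3 fell, with a median of 0.45. *cdc18*, which licenses replication origins, went from 1039, 1109 and 962 normalized counts to 256, 231 and 205 (-2.17 ± 0.09, adjusted p = 2.17e-16), while the wild type went up, from 942 to 1108 in MM to 1939 to 2580 (difference -3.3 ± 0.13, adjusted p = 7.51e-16). *cdt1*, its licensing partner, went from 412, 459 and 424 to 68.4, 65.4 and 79.4 (-2.59 ± 0.11, adjusted p = 2.59e-16; difference -3.48). *cdc22*, the large subunit of ribonucleotide reductase, which makes DNA building blocks, went from 15492, 15485 and 14003 to 2613, 2401 and 2636 (-2.56 ± 0.059, adjusted p = 5.58e-21). The libraries of the starved wild type, 17003 to 19497, lay above all of these.

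*cdt2* (-2), *yox1* (-1.67), *mrc1* (-1.45), *rep2* (-0.76) and *nrm1* (-0.13) also fell, and the factor's own genes *res2* (0.96) and *res1* (0.24) and the small reductase subunit gene *suc22* (0.2) rose. *cdc10* and *rad21* did not pass the test. Without the third library at 4 h, 2 genes rose and 11 fell, as the call of *res1* was lost (0.14, adjusted p = 0.116) and *rad21* was called lower (-0.19, adjusted p = 0.0366). Of the 15 genes, 6 were lower in the mutant and higher in the wild type by both tests. The summed count of the 15 was 33168 to 34508 in MM, 17383 to 18211 at 4 h and 41539 to 45497 in the starved wild type. With libraries scaled to equal totals 9 fell and 6 rose.

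The genes of cell separation went the same way. *eng1*, the glucanase that dissolves the primary septum, went from 11042, 9511 and 10343 to 1644, 1561 and 2183 (-2.53 ± 0.12, adjusted p = 1.42e-15), and the starved wild type had 21313 to 24966 (difference -3.57 ± 0.16, adjusted p = 1.53e-14). *agn1*, the α-glucanase that acts beside it, fell by 1.67 and rose by 1.12 in the wild type. *adg1* (-2.41), *adg2* (-2.18), *cfh4* (-1.07), *adg3* (-0.97), *bgs4* (-0.38), *mid2* (-0.36) and *ags1* (-0.36) fell too, and of the 12 genes on the list 10 were lower, or 7 with libraries scaled to equal totals. *bgs1* did not pass the test (0.19). Only *cps1* rose (2.35), which encodes a carboxypeptidase and was matched to the septation list by its name. Of the 12 genes, 8 were lower in the mutant and higher in the wild type.

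**Figure D3:**
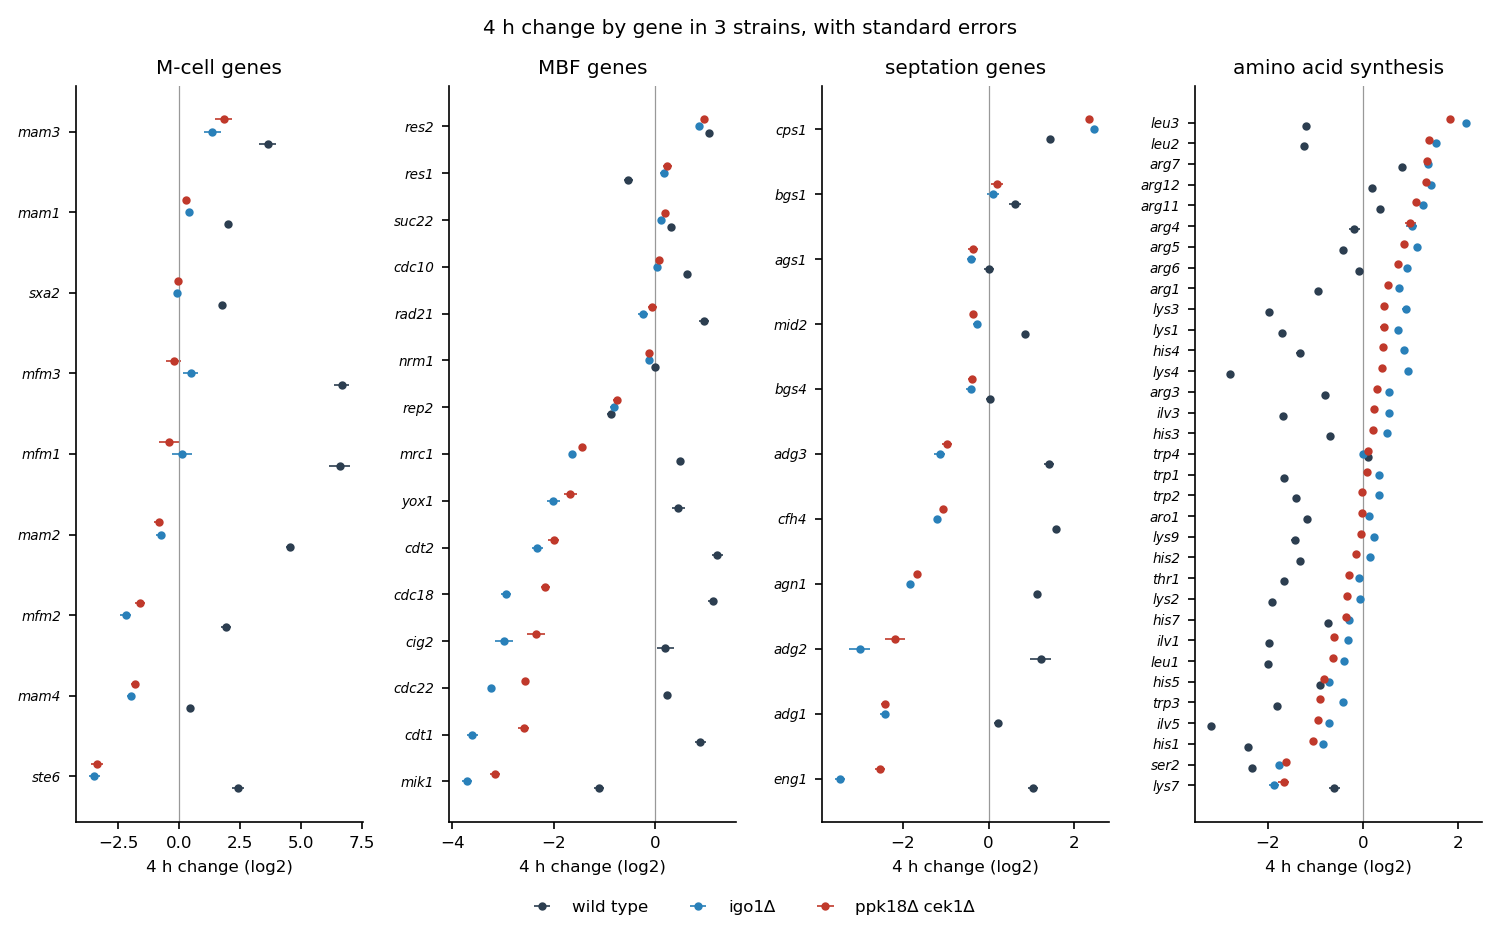
Log2 change at 4 h in MM-N against MM with its SE for genes of 4 groups (M-cell, MBF, septation and amino acid synthesis), in the wild type, *igo1*∆ and *ppk18*∆ *cek1*∆ cells. The mutants lie close together, and for *cdc18*, *eng1* and *leu3* they have the opposite sign to the wild type (-2.17 against 1.13, -2.53 against 1.04 and 1.83 against -1.19).

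Cell cycle regulators divided into both directions. Of 19 genes 7 rose and 6 fell, or 13 and 4 with libraries scaled to equal totals, so no direction is given for the group as a whole. *mik1*, an inhibitory kinase of Cdc2 that is also an MBF target, fell from 708, 686 and 712 to 88.2, 67.4 and 80.4 (-3.15 ± 0.1, adjusted p = 1.6e-18), *cig2*, the G1/S cyclin gene, from 1365, 1196 and 1512 to 249, 200 and 369 (-2.35), and *slp1*, the activator of the anaphase-promoting complex in mitosis, by 1.21. *suc1* (-0.43), *pyp3* (-0.26) and *fkh2* (-0.14) were lower by less. The G1 arrest genes *rum1*, a Cdc2 inhibitor, and *srw1*, the activator of cyclin destruction in G1, did not pass the test. *rum1* was 674, 596 and 735 in MM and 676, 601 and 748 at 4 h, against 1553 to 1764 in the starved wild type (difference -1.3 ± 0.13, adjusted p = 1.28e-08). *srw1* was 552, 523 and 558, then 513, 552 and 560, against 1619 to 1852 (difference -1.49 ± 0.077, adjusted p = 1.32e-13).

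The cyclin gene *puc1* (1.83), the forkhead gene *sep1* (1.6), *wee1* (1.1, with a call lost without the third library, 0.68 and adjusted p = 0.0546), *cdr2* (0.84), *cdr1* (0.8), *cdc2* (0.36) and *plo1* (0.14, lost without that library at 0.09) rose. *cdc13*, *cig1*, *cdc25* and *pom1* did not pass the test, and without the third library *cdc13* was called lower (-0.18, adjusted p = 0.0465), so that 5 of the 19 genes rose and 7 fell. Histone genes were split as well, with 5 of 10 higher and 3 lower, or 7 and 1 on equal totals. *hht3*, a histone H3 gene, went from 7756, 7657 and 6852 to 27267, 27069 and 26432 (1.86 ± 0.051, adjusted p = 1.23e-19), followed by *hhf3* (0.93), *hht2* (0.54), *hta1* (0.42) and *pht1* (0.17), while *hht1* (-0.96), *hhf1* (-0.35) and *hta2* (-0.32) fell and *htb1* and *hhf2* did not pass the test.

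Transcripts for ribosome production fell without Ppk18 and Cek1, and those of ribosomal proteins fell by less than in the wild type. Of 141 genes matched as ribosomal proteins 139 fell, 138 of them more than 2-fold, and the 2 that rose, *rpp21* (0.39) and *rpp40* (0.17), encode RNase P and MRP subunits and not ribosomal proteins. The median log2 change was -2.7, against -3.38 in the wild type. *rpl1002* went from 14691, 15927 and 13418 normalized counts to 978, 958 and 1014 (-3.9, against -4.57). For 130 of the 141 genes the change was higher in the mutant than in the wild type, that is, the fall was smaller, and for 1 it was lower, *rpl3402*. With libraries scaled to equal totals the counts were 113 and 1. All 13 translation factor genes fell, the elongation factor gene *tef101* from 168886, 177936 and 161949 to 37477, 37420 and 36293 (-2.19, against -3.08 in the wild type). Of 36 genes of ribosome biogenesis 35 fell, among them *gar1* (-2.88), *has1* (-2.34), *rrs1* (-2.33) and *mpp10* (-2.23), with a median of -1.26 against -1.45. Their change was higher than in the wild type for 15 and lower for 8, but higher for 7 and lower for 12 on equal totals, so no direction is given for this difference. The exception was *utp6* (-0.1, not significant), which fell by 1.49 in the wild type.

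Amino acid synthesis genes were kept higher than in the wild type. Of 33 genes 17 rose and 12 fell in the mutant, with a median of 0.11, whereas in the wild type 3 rose and 28 fell, with a median of -1.32. The change was higher than in the wild type for 30 of the 33 genes, 23 of them by more than 2-fold, and lower only for *lys7*. *leu3*, isopropylmalate synthase at the start of the leucine pathway, went from 21653, 21899 and 21029 to 77952, 79470 and 72416 (1.83 ± 0.055, adjusted p = 5.95e-19), while the wild type fell from 19241 to 21277 down to 8340 to 9271 (difference 3.02 ± 0.078, adjusted p = 6.89e-19). *leu2* went from 20760, 20501 and 19983 to 53896, 51817 and 54712 (1.39 ± 0.05; difference 2.62). *lys4*, homocitrate synthase of the lysine pathway, went from 15749, 16070 and 16481 to 22735, 21176 and 19825 (0.4 ± 0.063, adjusted p = 4.24e-06), and the starved wild type had only 2293 to 2313 (difference 3.2 ± 0.089, adjusted p = 1.95e-18). In each of these genes the mutant libraries at 4 h lay above all wild-type libraries.

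The arginine genes *arg7* (1.36), *arg12* (1.34), *arg11* (1.13) and *arg4* (1) and the lysine genes *lys3* (0.45) and *lys1* (0.44) rose. Falls were seen for *lys7* (-1.67), *ser2* (-1.62), *his1* (-1.06) and *ilv5*, the reductoisomerase of valine and isoleucine synthesis, which went from 71417, 72760 and 62781 to 36239, 35435 and 35677 (-0.94) but to 7014 to 7637 in the wild type. The summed count of the 33 genes was 411517 to 420720 in MM, 538332 to 551194 at 4 h, 159826 to 168576 in the starved wild type and 636984 to 658381 in starved *igo1*∆ cells. Sulfur metabolism did not share the rise. Of its 14 genes 11 fell and 2 rose, with a median of -2.01 (-2.12 in the wild type), counting *str1*, a siderophore transporter gene matched by its name, and led by *sam1*, *met14* (-2.86), *met17* (-2.82) and *sua1* (-2.76). *met17*, which makes homocysteine, and the methionine synthase gene *met26* (-1.79) fell less than in the wild type, by 1.79 and 1.55 on the log2 scale.

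Chaperone and proteasome genes were lower. Of 15 chaperone genes 14 fell, 12 more than 2-fold, with a median of -2.11 (-2.48 in the wild type), and their summed count was 641295 to 697144 in MM and 96063 to 99959 at 4 h. *sti1* (-3.39), *mas5* (-3.25) and *hsp10* (-3.02) followed *ssa2* and *hsp90*, and the heat shock factor gene *hsf1* rose by 0.57. For 10 of the 15 the change was lower than in the wild type and for 3 higher, where 28.1% of all genes were lower and 32.9% higher. The summed count in the starved wild type was 105314 to 105960. *hsp104*, the disaggregase, fell by 1.54 and by 0.25 in the wild type, whereas the Hsp70 of ribosomes, *sks2*, fell by 1.86 and by 2.86. Of 32 proteasome genes 29 fell and 1, *pre3*, rose (0.35), with a median of -0.52, and the wild type had a median of -0.03. *rpn12* went from 2697, 2633 and 2647 to 1212, 1274 and 1271 (-1.09, against -0.37), *rpn11* fell by 1.05 and *rpt4* by 0.94. With libraries scaled to equal totals 20 proteasome genes fell and 4 rose. The change was lower than in the wild type for 29 of the 32, and for 31 on equal totals.

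Stress genes rose beyond the wild type. Of 21 genes of the stress-activated kinase pathway and its targets 16 rose, 14 more than 2-fold, with a median of 1.85 against 1.05 in the wild type. *zym1*, metallothionein, went from 338, 375 and 321 to 21246, 16512 and 19394 (5.78 ± 0.096, adjusted p = 1.37e-23). The heat shock protein gene *hsp9* went from 27504, 25590 and 22155 to 155820, 146754 and 135197 (2.54 ± 0.13, adjusted p = 1.89e-14), and the wild type reached 57488 to 59908. *gpd1*, glycerol-3-phosphate dehydrogenase, went from 28050, 26373 and 21939 to 126863, 120596 and 134270 (2.33 ± 0.084; difference 1.43 ± 0.12, adjusted p = 4.97e-10), and the catalase gene *ctt1* from 3438, 3181 and 3354 to 25079, 23480 and 23105 (2.84). *ish1* (2.91), the phosphatase gene *pyp2* (2.62), the transcription factor genes *pcr1* (2.28) and *atf1* (2.05), *gpx1* (2.25), *ntp1* (1.62) and *tps1* (1.29) rose. The kinase genes *sty1* and *wis1* and the genes *grx1* and *gst1* did not pass the test. The one gene on the list that fell was *uds1* (4222, 4036 and 3830 to 1038, 1064 and 895), a septation protein gene matched by its name, which rose by 1.05 in the wild type. The change was higher than in the wild type for 12 of the 21 genes and lower for 1, where 32.9% of all genes were higher and 28.1% lower.

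Carbon metabolism genes were divided, as were all genes tested, of which 41.9% rose and 40.9% fell. Of 19 glycolytic and related genes 13 fell and 5 rose, with a median of -0.95. *pgk1*, phosphoglycerate kinase, went from 175112, 174181 and 149441 to 24853, 22922 and 39988 (-2.55, against -1.34 in the wild type), and *gpm1* (-2.69), *eno101* (-2.31) and *pdc101* (-2.17) fell with it. The enolase paralogue gene *eno102* went from 69.8, 40.6 and 44.4 to 4953, 3638 and 3655 (6.3 ± 0.25, adjusted p = 1.17e-16), *fbp1*, the gluconeogenic fructose bisphosphatase, rose by 2.15, and *gpd3* by 1.61. *adh4*, alcohol dehydrogenase, rose by 0.65 and fell by 2.05 in the wild type (difference 2.7 ± 0.076, adjusted p = 2.18e-18). Of 8 hexose transporter genes 3 rose and 3 fell. *ght7* went from 4.11, 2.08 and 3.5 to 240, 239 and 236, and *ght2* from 5364, 5206 and 4495 to 22468, 23143 and 25203 (2.24 ± 0.081), with 5439 to 6036 in the starved wild type (difference 2.01 ± 0.12, adjusted p = 8.09e-13). *ght3* rose by 1.7. *ght5*, the main glucose transporter gene, went from 10779, 5480 and 14127 to 3819, 1732 and 2582 (-1.87), and *ght1* (-1.24) and *ght8* (-0.63) fell. *ght4* and *ght6* did not pass the test.

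Of 41 nuclear genes of respiration 24 rose and 5 fell, with a median of 0.19 (0.36 in the wild type), the malate dehydrogenase gene *mdh1* (1.65), *sdh2* (1.06), *cit1* (0.91) and *cox7* (0.87) rising most and *atp16* (-0.58), *qcr6* (-0.4), *cox5* (-0.34), *lsc1* (-0.22) and *cox13* (-0.19, or -0.15 and adjusted p = 0.0581 without the third library at 4 h) falling. On equal totals 35 rose and 2 fell. For this and the other groups here, the shares over all genes were 41.9% higher and 40.9% lower. Mitochondrial transcripts took 0.756% to 1.16% of the reads in MM and 2.07% to 2.25% at 4 h, and of 23 mitochondrial genes tested 5 rose and 4 fell. Iron uptake genes included the heme receptor gene *shu1* (2.74, 0 and 0 to 189, 225 and 172) and the siderophore transporter gene *str3*, which rose by 3.23, and the siderophore transporter gene *str1*, which fell from 2831, 2438 and 3375 to 563, 443 and 631 (-2.4). The iron repressor gene *fep1* rose by 1.88. Of 9 genes on the thiamine list 6 fell and 2 rose, counting *gut2*, a glycerol-3-phosphate dehydrogenase gene. *nmt1*, the thiamine synthesis gene whose promoter is widely used for regulated expression, went from 549797, 560465 and 465768 to 117737, 108587 and 141321 (-2.1, against -1.08 in the wild type), and *thi2* (-1.82), *thi4* (-1.32) and *pho4* (-1.27) fell as well. Of 11 lipid genes 6 fell, led by *lcf2* (-0.98), and 3 rose, among them the triacylglycerol synthase gene *dga1* (1.02).

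Retrotransposon transcripts rose in the mutant. Tf2 elements are the full-length LTR retrotransposons of this yeast. All 12 copies that passed the filter, of 13 annotated, rose more than 2-fold, with a median of 4.23. In the wild type 1 rose and 1 fell, with a median of -0.11. The change was higher in the mutant for all 12, or for 9 by edgeR and 11 by DESeq2. A copy low elsewhere could pass the filter through the starved mutant libraries. The sums do not depend on the filter, and over all 13 copies the summed count was 1144 to 1442 in MM, 6399 to 8415 at 1 h and 22414 to 35219 at 4 h. In the wild type it was 1064 to 1352 in MM and 1130 to 1363 at 4 h, and in starved *igo1*∆ cells 43568 to 66971. *Tf2-6* went from 50.7, 43.7 and 47.9 to 2494, 2497 and 1805 (5.54 ± 0.3, adjusted p = 2.92e-14), against 49.6 to 71.7 in the starved wild type, and *Tf2-8* from 301, 324 and 404 to 11075, 16189 and 8957 (5.1 ± 0.19). *Tf2-3* rose by 4.89 and *Tf2-7* by 4.82. The copies are nearly identical and share reads, so values of single copies are uncertain and the sum is the safer measure.

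Of 949 non-coding RNAs tested 488 rose and 199 fell, 338 and 122 of them more than 2-fold, with a median of 0.53 against 0.15 in the wild type. These were the members of 1530 that passed the filter, which an RNA low in MM could pass through the starved libraries where it was high. Under the alternatives the median ran from 0.09 to 0.8, with 331 to 565 higher and 92 to 295 lower. The change was higher than in the wild type for 355 and lower for 117, or 294 and 169 on equal totals. Since many of them overlap coding genes, how strand was counted bears on these numbers. Of 53 small nucleolar RNAs 27 passed the filter, and 12 of these rose and 5 fell, where 41.9% of all genes rose and 40.9% fell. In the wild type 1 rose and 13 fell, with a median of -0.71 against 0.24 in the mutant (-0.01 to 0.51 under the alternatives). The change was higher than in the wild type for 19 and lower for 1, where 32.9% of all genes were higher and 28.1% lower. Under the alternatives 15 to 19 were higher.

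**Figure D4:**
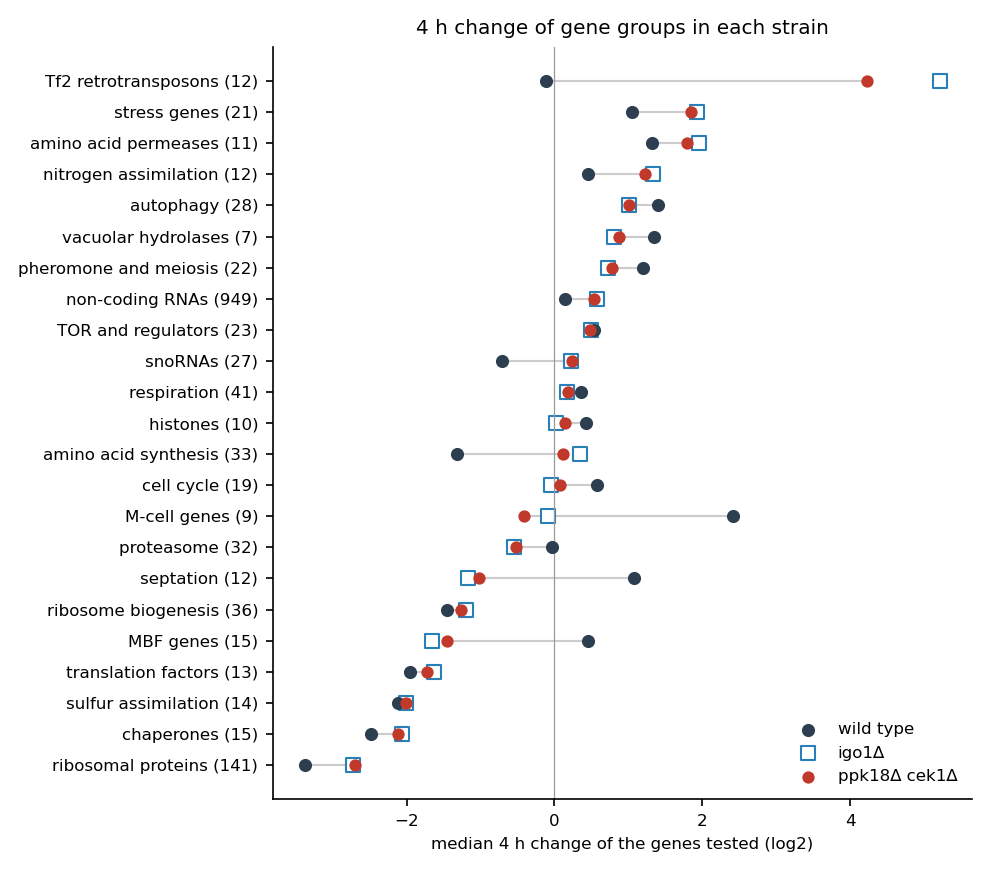
Median log2 change at 4 h in MM-N against MM of 23 gene groups in the wild type, *igo1*∆ and *ppk18*∆ *cek1*∆ cells. The points of the mutants lie near each other, furthest apart for Tf2 (4.23 and 5.22). They part most from the wild type in the M-cell (-0.41 against 2.41), MBF (-1.45 against 0.45), septation (-1.02 against 1.08), amino acid (0.11 against -1.32) and Tf2 groups, and less in others such as snoRNAs (0.24 against -0.71).

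Loss of Greatwall was then set against loss of its target Igo1. The 4 h change differed from that in *igo1*∆ cells for 83 genes (1.38%), 12 higher (0.199%) and 71 lower (1.18%), and by more than 2-fold for 1 gene upward (0.0166%) and 3 downward (0.0497%). This count depended on single libraries. It was 38 without the third *ppk18*∆ *cek1*∆ library at 4 h or without the second *igo1*∆ library at 4 h, 39 without the third *igo1*∆ library at 4 h, 49 without the third *ppk18*∆ *cek1*∆ library in MM, 51 without the second *igo1*∆ library in MM and 154 without the first *igo1*∆ library at 4 h. Among the 12 higher were *cdt1* (68.4, 65.4 and 79.4 against 30, 38.8 and 49.2 in *igo1*∆ at 4 h, difference 1.01, log2) and 3 further MBF genes of the list, *cdc18*, *cdc22* and *mik1*. *cdc18* had 205 to 256 against 125 to 147, and *cdc22* 2401 to 2636 against 1524 to 1672, with differences of 0.77 and 0.68. *igo1* itself was among the 12 (0.99). Its mean in the cells labelled *igo1*∆ was still 1529 at 4 h, against 3984 to 4633 here, and reads at a deleted gene may come from parts left in place or from an overlapping gene, which was not tested. Another was SPNCRNA.1278 (511, 497 and 697 in MM to 59.5, 62.3 and 72.2, difference 0.97). Of those lower, *Tf2-10* had 685, 672 and 477 against a mean of 2134 (-1.66), the isomerase gene SPAC186.06 61.4, 72.5 and 32 against 239 (-2.5) and the nucleotide-sugar dehydratase gene *tgd1* 638, 533 and 482 against 961 (-0.96). Of the 33 amino acid genes 7 were lower than in *igo1*∆ cells and 0 higher.

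The 4 h libraries were also compared with those taken after 1 h. The comparison shares its 4 h libraries with the one against MM, so both sets of values are given side by side. Between 1 h and 4 h, 2051 genes (34%) rose and 2164 (35.9%) fell, or 69.8% in all, with 548 (9.08%) and 337 (5.58%) more than 2-fold. Of the 1047 genes more than 2-fold up at 4 h, 507 were already so at 1 h (11.1% of all genes were), 745 moved further from MM between 1 h and 4 h, 123 moved back towards it and 87 had been significantly lower at 1 h. Of the 892 genes down, 562 were already so at 1 h (12% of all genes were), 636 moved further and 74 moved back.

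MBF and septation genes turned over during this time. At 1 h 39.2% of all genes were higher and 38.2% lower than in MM (77.5% in all), and 14 of the 15 MBF genes were higher, with a median of 0.8, and their summed count was 60224 to 62366, before it dropped to 17383 to 18211 at 4 h. *cdc18* was 3303 to 3448 at 1 h and 205 to 256 at 4 h (-3.88, adjusted p = 3.48e-20), and *cdc22* 29578 to 31499 and 2401 to 2636 (-3.58, adjusted p = 1.35e-22). The transcription factor gene *tos4*, one of the genes that fell most between the times, went from 4773, 4718 and 4958 in MM through 9233 to 9762 at 1 h to 583, 532 and 608 (-4.05, adjusted p = 3.39e-23). Of the 12 septation genes, 10 rose at 1 h and 10 fell from 1 h to 4 h. *eng1* was 26171 to 32883 at 1 h and 1561 to 2183 at 4 h, and *srw1* 1625 to 1740 and then 513 to 560. *ste6* was 270 to 338 at 1 h before it fell to 15.5 to 20.8.

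Stress genes took the opposite course. At 1 h 5 of the 21 were higher and 11 lower than in MM, with a median of -0.19, and 17 rose from 1 h to 4 h. *hsp9* went from 22155 to 27504 in MM down to 5906 to 9697 at 1 h and up to 135197 to 155820 at 4 h (4.22, adjusted p = 6.13e-18), and *ddr48*, a stress protein gene, from 3516, 3280 and 1398 through a mean of 302 to 74280, 58684 and 59934 (7.75, adjusted p = 1.91e-17). *hry1* (8.38) and SPAC977.15 (7.35) rose late as well, and *inv1* was still at 330 to 336 at 1 h. The D-glutamate cyclase gene *dgc1* was transient. It went from 3750, 3713 and 4482 to a mean of 47127 at 1 h and back to 1242, 1414 and 1714 (-5.01, adjusted p = 6.51e-18). *isp5* was likewise higher at 1 h (62241 to 68189), and 7 of the 11 permease genes fell from 1 h to 4 h. Ribosomal protein genes were already down at 1 h, with a median of -1.97, and *gdh1* was at 47829 to 49631.

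**Figure D5:**
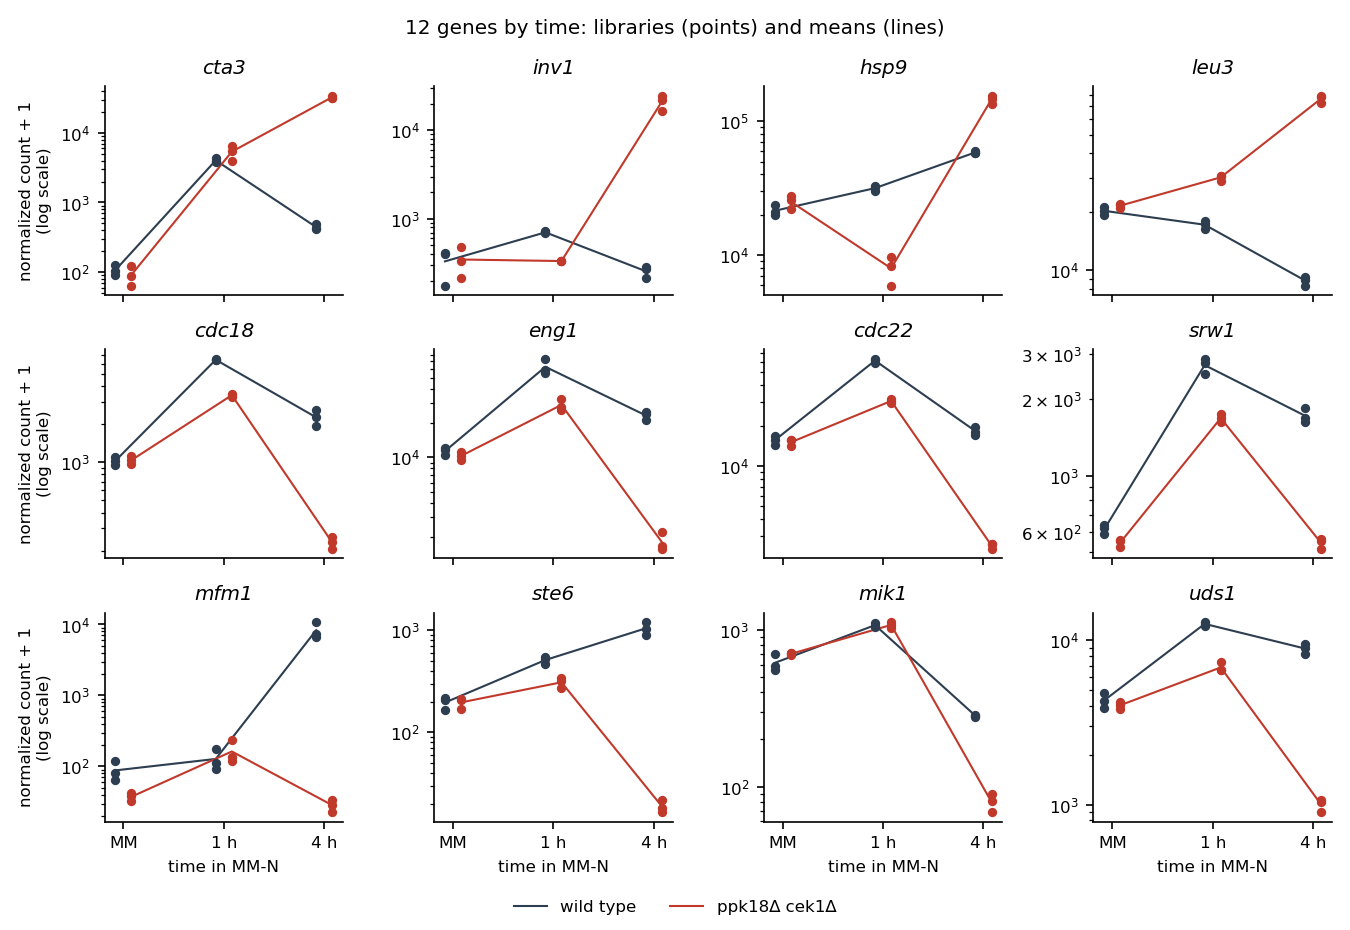
Normalized counts (log axis) of 12 genes in MM and at 1 h and 4 h of MM-N, with the 3 libraries of the wild type and of *ppk18*∆ *cek1*∆ cells as points and lines through the means. *cdc18*, *eng1*, *cdc22* and *srw1* rise in the mutant at 1 h and then drop, while *inv1* and *hsp9* rise only between 1 h and 4 h.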

How the data were processed

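Total RNA of wild type, *igo1*∆ and *ppk18*∆ *cek1*∆ cells in MM and at 1 h and 4 h of MM-N was sequenced by the study as strand-specific, rRNA-depleted libraries, 3 for each strain and time. The submitters' processing notes name FastQC 0.11.8, Trimmomatic 0.38, HISAT2 2.1.0, featureCounts of Subread 1.6.3, DESeq2 and the genome build ASM294v2. The strand setting used for counting was not given in the sources used here.

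The deposited values are a signal, read counts per gene scaled by the authors with the size factor DESeq2 gave each library. Division by a constant for each library gave back whole reads for 100% of the values within 0.01 of a read. Every column of the time-course values belonged to a library of the series, and the table of the overexpression experiment was not used here.

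Genes with a mean of at least 10 normalized counts over the 27 libraries were kept (6036 of 7001). Log2 of the normalized count plus 1 entered a limma model (version 3.58.1, R 4.3.3) (group means of all 27 libraries, moderated with a mean-variance trend, Benjamini-Hochberg adjustment over all genes kept, threshold 0.05). Fold changes of low genes are understated by the added 1. Differences between strains are contrasts of contrasts in the same fit. Libraries of one replicate number may come from the same culture at different times, which the fit treats as independent. On data simulated for the 4 h comparison (6032 genes), 97 of 100 genes changed 2-fold (log2 of 1) and 100 of 100 changed by log2 of 2 were called, with 11 false calls. The simulation changed no other genes and drew independent libraries with a fixed spread. In the data most genes changed and a library stood apart, so these rates need not hold there.

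Named were the genes of the switch, nitrogen, mating, cell cycle and histone lists, the largest significant changes of each comparison (10 coding and 3 non-coding each way at 4 h, 6 each way against the wild type, 3 each way in the others, with a mean of at least 50), and up to 4 each way in every other list. For the 4 h change and for 4 h against 1 h the libraries also had not to overlap. Of the 6 below the wild type, SPBC2A9.14 is given no values here. Other genes were named after their values were seen. The members and lists were chosen with earlier results of these data known. List members were matched by symbol, and 6852 of 7001 genes were found in RefSeq (ASM294v3), which was used for names, types, overlaps and gene order. Alternatives were edgeR 4.0.16 and DESeq2 1.42.0 on the recovered reads, other scalings, filters and an added 10, a replicate block and leaving out each library. Figures were drawn with matplotlib 3.10.9.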

Additional observations from a re-analysis of the deposited data

Results flagged for a closer look

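By the test of the difference between strains, among protein-coding genes with a mean of at least 50 normalized counts, the 4 h change in *ppk18*∆ *cek1*∆ cells stood furthest above that of the wild type for SPAC977.15 (7.73 on the log2 scale), *cta3* (6.46) and *inv1* (6.27), and furthest below it for *mfm1* (-6.99), *mfm3* (-6.9) and *ste6* (-5.8). Against *igo1*∆ cells, among all genes with such a mean, it stood furthest above for *cdt1* (1.01), *igo1*, which is deleted in the strain compared with (0.99), and SPNCRNA.1278 (0.97), and furthest below for SPAC186.06 (-2.5), *Tf2-10* (-1.66) and *tgd1* (-0.96). Over the alternatives the *igo1*∆ differences of *igo1* and *Tf2-10* were called in all 22, those of *cdt1* and SPNCRNA.1278 in 21 of 22, that of SPAC186.06 in 10 of the 21 that tested it and that of *tgd1* in 8 of 22.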

How the results depend on the processing

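Counts of genes called stayed within 1.5 times under every alternative for the 4 h change (4873 to 4944 when 1 library was left out), its difference from the wild type (3510 to 3625) and the change from 1 h to 4 h (3944 to 4075). The difference from *igo1*∆ did not. Its count of 83 became 54 (12 higher, 42 lower) with quantile normalization, 15 (5 and 10) when only the groups compared were fitted, which leaves fewer libraries to estimate the spread, and 38 to 154 when 1 library was left out. Scaling libraries to equal totals turned the split of the 4 h change from 2529 higher and 2466 lower into 3234 and 1798, that of the difference from the wild type from 1985 and 1697 into 1290 and 2465 (1659 and 2060 with quantile normalization), and that of 4 h against 1 h from 2051 and 2164 into 1670 and 2474.

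Among 263 named genes, 25 lost and 20 gained the call of a 4 h change under some alternative, and 17 and 30 that of the difference from the wild type. Small changes reversed on equal totals, to 0.22 for *atg11*, 0.21 for *cdc13*, 0.08 for *cox13*, 0.13 for *fkh2*, 0.2 for *grx1*, 0.25 for *htb1* (0.34 with quantile normalization), 0.06 for *lsc1*, 0.14 for *nrm1*, 0.17 for *ppa1*, 0.04 for *ppa2*, 0.01 for *pyp3*, 0.21 for *rad21*, 0.19 for *ral2*, 0.06 for *rhb1*, 0.04 for *sck2*, 0.26 for *srw1*, 0.19 for *sty1*, 0.07 for *tip41* and 0.17 for *utp6*. With quantile normalization *gst1* became -0.45, and the differences from the wild type of *grx1*, *hta1* and *ure2* became -0.24, -0.14 and -0.1. Which scaling is nearer to RNA per cell was not tested.

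Libraries with the same replicate number did not all deviate together. Their deviations correlated at 0.04, 0.25 and 0.05 between MM and 4 h, at 0.05, 0.45 and 0.22 between 1 h and 4 h, and at 0.18, 0.12 and 0.1 between MM and 4 h in *igo1*∆ and 0.02, 0.01 and 0.11 in the wild type. The first MM library correlated best with the third at 4 h (0.18). Since not every pair of the strain was over 0.1, the numbers were not taken as pairs. With the replicate block 5045 genes were called for the 4 h change (2556 higher, 2489 lower), 3779 for the difference from the wild type, 102 for that from *igo1*∆ and 4292 for 4 h against 1 h.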
